A study of Mus musculus with 4 samples.

Results

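Cullin-RING ubiquitin ligases were followed in splenic B220+ B cells through 89 genes, taken from the 55401 listed genes by symbol alone. They comprise 8 cullins (Cul1, Cul2, Cul3, Cul4a, Cul4b, Cul5, Cul7 and Cul9), the numbered F-box genes of the Fbxl, Fbxo and Fbxw series (18, 36 and 24 genes), the adaptor gene Skp1a together with the RING subunit gene Rbx1, and the F-box gene Skp2. RNA-seq was done on 4 libraries, 2 of NSD1 B WT (Mb1-Cre+ NSD1+/+, WT in short) and 2 of NSD1 B KO (Mb1-Cre+ NSD1fl/fl, KO in short), in order to see how the loss of NSD1, a histone methyltransferase acting on lysine 36 of histone H3, alters gene expression. The mice were on the C57BL/6J background and were untreated as far as the labels say, and all of them carried Mb1-Cre, a Cre recombinase driven by the Cd79a gene and active in the B lineage, so the controls share it. In NSD1 B KO, loxP sites flank exons 6 to 8 of Nsd1. The study used littermate controls of both sexes between 7 and 9 weeks of age. Neither the age and sex behind a library nor the number of mice behind the 2 libraries of each genotype is given, so p-values here measure only the spread between these libraries, which may be technical. Cells were sorted to a stated purity above 98%.

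Ubiquitin ligases choose which proteins are tagged with ubiquitin and sent to the proteasome. In a cullin-RING ligase, a cullin forms the scaffold. A RING subunit (Rbx1 or its relative Rnf7) at its C-terminal end recruits the ubiquitin-loaded E2 enzyme, and an adaptor at its N-terminal end holds an exchangeable substrate receptor. In the SCF class the scaffold is Cul1, the adaptor is Skp1 and the receptor is an F-box protein, named Fbxw when it also has WD40 repeats, Fbxl when it has leucine-rich repeats and Fbxo otherwise. Attachment of Nedd8 to the cullin activates the ligase, the COP9 signalosome removes it, and Cand1 exchanges receptors. In B cells such ligases degrade IκB proteins after receptor signals, cell cycle inhibitors before division, and BCL6 in germinal centers.

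Of the 89 genes, 33 had no count in any library and 9 more were found only in WT, at 50 or more counts over the 2 libraries and 0 counts in both KO libraries. Windows before the start of the transcript were available from RefSeq (build GRCm38.p6) for 68 of the 89 genes. Shown here as examples are those of 3 genes found only in WT with the same short motif (Cul4a, Cul7 and Fbxw11) and of 1 without it (Fbxo36). Those of 2 genes that went the other way (Fbxl15 and Fbxl4) are shown as well. These are not the 6 genes with the largest contrasts. Capitals mark CCGGAA or its reverse complement TTCCGG, the core bound by ETS family transcription factors. Each window covers at most 250 bases before the RefSeq start, without bases that lie in an annotated exon, and is written 5′ to 3′ on the plus strand, on which all 6 genes lie. The positions are chr8:13105460-13105620 (Cul4a), chr17:46650140-46650336 (Cul7), chr11:32642305-32642554 (Fbxw11), chr1:84839591-84839840 (Fbxo36), chr19:46327934-46328183 (Fbxl15) and chr4:22357293-22357542 (Fbxl4).
Cul4a: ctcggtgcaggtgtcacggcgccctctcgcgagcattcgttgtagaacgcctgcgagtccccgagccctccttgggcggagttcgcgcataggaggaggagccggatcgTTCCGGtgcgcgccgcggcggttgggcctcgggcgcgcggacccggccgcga
Cul7: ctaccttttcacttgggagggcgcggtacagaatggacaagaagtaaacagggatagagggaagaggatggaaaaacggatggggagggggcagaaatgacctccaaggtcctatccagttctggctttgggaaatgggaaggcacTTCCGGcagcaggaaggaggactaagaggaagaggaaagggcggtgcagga
Fbxw11: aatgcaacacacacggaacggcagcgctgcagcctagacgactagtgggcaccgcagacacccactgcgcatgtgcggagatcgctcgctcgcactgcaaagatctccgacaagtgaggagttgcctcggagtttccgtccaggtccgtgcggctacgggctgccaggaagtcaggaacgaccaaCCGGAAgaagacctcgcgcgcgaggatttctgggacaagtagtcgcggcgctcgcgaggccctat
Fbxo36: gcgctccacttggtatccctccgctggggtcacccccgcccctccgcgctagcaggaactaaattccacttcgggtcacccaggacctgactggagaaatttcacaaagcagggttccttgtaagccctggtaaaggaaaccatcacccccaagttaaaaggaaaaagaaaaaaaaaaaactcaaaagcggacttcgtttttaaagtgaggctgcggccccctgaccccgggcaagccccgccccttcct
Fbxl15: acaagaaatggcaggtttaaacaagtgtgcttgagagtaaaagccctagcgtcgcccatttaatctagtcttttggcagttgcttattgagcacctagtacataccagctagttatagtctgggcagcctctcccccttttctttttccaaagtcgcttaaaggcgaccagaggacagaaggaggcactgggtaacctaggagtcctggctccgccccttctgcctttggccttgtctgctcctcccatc
Fbxl4: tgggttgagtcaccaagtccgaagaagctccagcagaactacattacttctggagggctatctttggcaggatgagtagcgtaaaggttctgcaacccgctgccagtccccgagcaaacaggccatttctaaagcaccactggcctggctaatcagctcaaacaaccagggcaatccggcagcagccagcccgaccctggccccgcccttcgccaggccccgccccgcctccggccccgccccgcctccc

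The motif, searched on both strands over the whole 250 bases, was found in 12% of the 32851 RefSeq windows and in 17.6% of the 68 matched member windows. It was found in 4 of the 6 matched windows of genes at 0 in KO (Cul4a, Cul7, Fbxw11 and Fbxw9, in the last within bases not shown), in 3 of 26 windows of genes counted in both genotypes and in 4 of 27 windows of genes with no count. The windows of the first group had more CpG, with a median observed-to-expected ratio of 0.982 against 0.717 for genes counted in both genotypes, 0.2 for genes without a count and 0.373 for all windows. The windows of Cul7 (0.359) and Fbxl15 (0.322) lay below the median of all windows. These are descriptions of letters in the windows of few genes, and they say nothing about whether a factor binds there.

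Counts on genes were 6769118 to 7566834 per library, with 12383 to 13084 genes counted. The targeted gene Nsd1 had 497 and 480 counts in WT and 284 and 280 in KO (log2 fold change -0.74, standard error 0.11), which checks the labels only in part, because counts cover the whole gene. Of 11657 genes tested, 78.2% were called, 37.1% as higher and 41.1% as lower in KO. A call needed a fold change above 1.2 and, in the quasi-likelihood test of edgeR, a p below 0.05 after Benjamini-Hochberg adjustment. Levels are given as CPM, counts brought to a fixed library total with edgeR's TMM scaling, as mean ± SD of n = 2 libraries.

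The libraries carried the genes of B cells, with all 10 listed B cell genes counted, 1 higher and 7 lower in KO. Their summed levels were 50497 to 50609 CPM in WT and 40841 to 41541 CPM in KO. Most of these sums was Cd74 alone, with means of 37682 CPM in WT and 29403 CPM in KO. Pax5 fell most, from 279 and 342 counts to 30 and 31 (log2 fold change -3.29). Cd79a was lower as well (-1.33), while Ebf1 was the gene called higher (0.75). Of 8 erythroid genes, all 5 that could be tested were higher in KO, with sums of 35.6 to 39.6 CPM in WT and 1690 to 1944 CPM in KO, while Slc4a1 and Car1 were among the genes at 0. Among 12 myeloid genes 5 were higher and 2 lower of 8 tested, with sums of 5436 to 5522 CPM and 6599 to 6960 CPM, and Mpo, Elane and Ly6g at 0. For T cells 3 were higher and 3 lower of 7 tested genes (82.0 to 84.8 and 92.6 to 98.7 CPM), with Cd4 and Cd8a at 0. Of the NK cell list 2 genes were higher and 1 lower of 3 tested (55.8 to 59.6 and 92.0 to 92.9 CPM, Ncr1 at 0), of the dendritic list 2 higher of 2 (62.4 to 67.9 and 110.3 to 110.9 CPM, Flt3 and Itgax at 0), of the platelet list 1 higher of 1 (153.9 to 166.9 and 223.6 to 232.5 CPM, Gp9 and Itga2b at 0), and of the plasma cell list 2 higher and 2 lower of 5 (300.7 to 315.4 and 258.9 to 267.6 CPM, Sdc1 at 0). The part of other cells in the values that follow was not tested. In sorted cells measured in bulk, fewer cells of a type and less RNA per cell cannot be told apart.

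All 8 cullin genes were counted and all 8 differed between the genotypes, 3 higher and 5 lower in KO. Of all 11657 tested genes 78.2% were called, 37.1% as higher and 41.1% as lower, so a call in itself was common. The ones that fell were Cul2, Cul3, Cul4b, Cul4a and Cul7, of which the last pair had no count left in KO. The ones that rose were Cul1, Cul5 and Cul9. Summed over the 8 genes the level was 284 and 299 CPM in the WT libraries and 196 and 190 CPM in the KO libraries.

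Cul1 (ENSMUSG00000029686.15, chr6:47453398-47526139 in mm10, plus strand), the scaffold of the SCF ligases, had 380 and 414 counts in WT and 573 and 493 in KO. Both KO libraries were higher, with 54.9 ± 2.44 against 76.5 ± 4.49 CPM and a log2 fold change of 0.48 (standard error 0.11, edgeR adjusted p = 6.40e-05). Of its exon bases 4.75% overlap a pseudogene on the opposite strand. Cul3 (ENSMUSG00000004364.14, chr1:80264923-80340480, minus strand), which takes BTB proteins as receptors, went the other way, from 814 and 876 counts to 297 and 252. Its log2 fold change was -1.57 (standard error 0.10, edgeR adjusted p = 1.60e-18). Per kb of exon, Cul3 was the cullin with the highest level in WT, at 23.4 and 24.6 CPM per kb beside 13.2 and 14.0 for Cul1. In KO this order was turned, with 8.47 and 7.69 CPM per kb for Cul3 and 19.7 and 18.1 for Cul1.

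Cul4a and Cul4b are paralogs that bind the adaptor Ddb1 and receptors of the DCAF group. Cul4a (ENSMUSG00000031446.14, chr8:13105621-13147940, plus strand) had 156 and 215 counts in WT and 0 in both KO libraries. Against the limit that 0 counts allow, 3 counts over the 2 libraries or 0.215 CPM, it was at least 119-fold lower. Cul4b (ENSMUSG00000031095.15, chrX:38533274-38576196, minus strand) was counted 359 and 344 times in WT and 201 and 159 times in KO, with a log2 fold change of -0.91 (standard error 0.14, edgeR adjusted p = 4.35e-08). Thus Cul4b was lower as well, yet it remained the paralog with counts in every library, at 12.2 to 13.0 CPM per kb in WT and 6.10 to 7.21 in KO.

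Cul2 and Cul5 share the adaptors elongin B and elongin C. Cul2 (ENSMUSG00000024231.15), the scaffold used by the VHL protein, had 143 and 144 counts in WT and 9 and 15 in KO, which was 19.9 ± 0.222 against 1.74 ± 0.692 CPM (log2 fold change -3.51, standard error 0.30, edgeR adjusted p = 9.59e-15). Cul5 (ENSMUSG00000032030.16, chr9:53614582-53670014, minus strand), the scaffold used by SOCS box proteins, rose from 122 and 133 counts to 299 and 318 (log2 fold change 1.33, standard error 0.15, edgeR adjusted p = 3.28e-11). The libraries of the 2 genotypes did not overlap for either gene. Cul2 was the gene with the higher level per kb of the pair in WT (4.75 and 4.67 against 2.09 and 2.23 CPM per kb), and Cul5 in KO (5.09 and 5.79 against 0.297 and 0.529).

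Cul7 and Cul9 are related, atypical cullins that lie near each other on chromosome 17. Cul7 (ENSMUSG00000038545.13, 46650337 to 46664364, plus strand), which pairs with Skp1 and Fbxw8, had 51 and 57 counts in WT and 0 in both KO libraries, at least 34.7-fold lower. Cul9 (ENSMUSG00000040327.16, 46500572 to 46546388, minus strand), known for binding p53 in the cytoplasm, had 2 and 1 counts in WT and 34 and 40 in KO. The ratio of Cul9 in KO over WT was 25.6, with a 95% counting interval of 8.43 to 127. Both genes were low, and the highest level of either in any library was 1.05 CPM per kb.

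**Figure D1:**
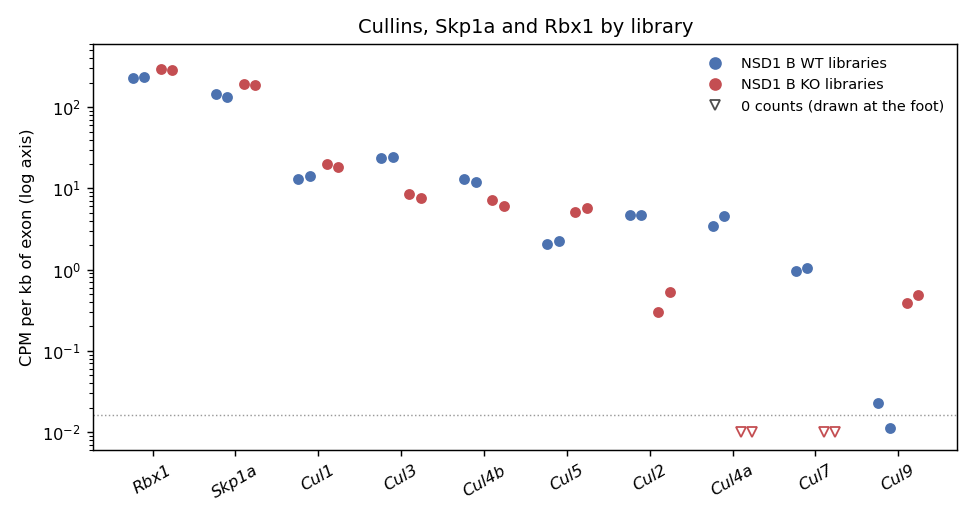
Level of the 8 cullins, Skp1a and Rbx1 in each library, in CPM per kb of exon on a log axis, with 1 point for each library and open triangles below the dotted line for 0 counts. Rbx1 and Skp1a lie above all cullins in every library, Cul1 and Cul3 change order between the genotypes, and Cul4a and Cul7 have 0 counts in both KO libraries.

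Rbx1 (ENSMUSG00000022400.9, chr15:81466296-81476369, plus strand), the RING subunit shared by most cullins, was the gene with the highest level of all 89, with 7512 and 7929 counts in WT and 9559 and 8753 in KO. Its level was 1068 ± 23.6 CPM in WT and 1315 ± 19.3 in KO (log2 fold change 0.30, standard error 0.07, edgeR adjusted p = 3.26e-04). The fold change of Rbx1 lay close to the limit of 1.2 and dropped under it when libraries were scaled by size alone or by upper quartile, and with a filter of 1 CPM in all 4 libraries. Skp1a (ENSMUSG00000036309.14, chr11:52231995-52246858, plus strand), which bridges Cul1 and the F-box proteins, rose from 2309 and 2176 counts to 3099 and 2804 (log2 fold change 0.45, standard error 0.08, edgeR adjusted p = 1.44e-06). The core of the SCF ligase, Cul1 with Skp1a and Rbx1, was therefore higher in KO at all 3 genes, by 1.39-, 1.37- and 1.23-fold, with the exceptions just given for the call of Rbx1. Skp2, the F-box gene whose product marks the cell cycle inhibitor p27 for degradation, had 0 counts in all 4 libraries, which allows up to 0.208 CPM in WT and 0.215 in KO.

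Among the F-box genes, 9 of 11 tested Fbxl genes were called, 7 higher and 2 lower. The Fbxo genes were split into 9 higher and 10 lower of 22 tested, and the Fbxw genes into 3 higher and 4 lower of 7. With the cullins, Skp1a and Rbx1 included, 24 genes were higher, 21 were lower and 5 were not called of the 50 tested. That is 90% called, beside 78.2% of all tested genes. In 47 of the 50 both KO libraries lay on one side of both WT libraries, as they did in 88.1% of all tested genes. Many of the 50 had few or no counts in 1 genotype, and a gene that passes the filter only through the genotype in which it is high has to differ, so these counts are given as a description. The median log2 fold change was 0.26 over the 50 genes and -0.10 over all tested genes. It fell to 0.012 without KO replicate 1 and to 0.057 with a filter of 1 count in any library, so nothing is read from its sign.

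For 30 of the genes at least 10 counts were present in each library. Of these, 18 were higher, 7 lower and 5 not called in KO, where the 8072 genes with that depth were called in 71.2%, 36.2% as higher and 34.9% as lower. The median log2 fold change of the 30 genes was 0.48 and their median absolute log2 fold change 0.93, beside 0.00 and 0.70 for the 8072 genes. Between the 2 libraries of a genotype, the median absolute log2 ratio of the 30 genes was 0.21 in WT and 0.13 in KO. The plot of fold changes for these genes shows the spread from Fbxo4 at the top to Fbxw5 at the bottom.

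**Figure D2:**
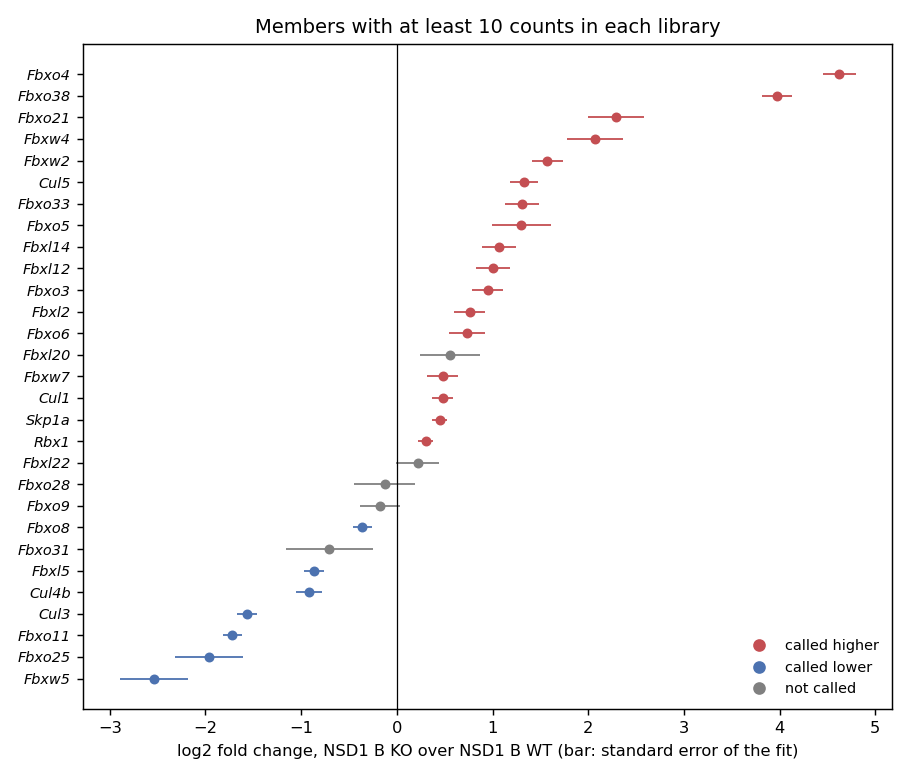
Log2 fold change of KO over WT (x axis) for 29 of the 30 genes with at least 10 counts in each library, each with the standard error of the edgeR fit as a bar. Red marks the 17 drawn genes called higher, blue the 7 called lower and grey the 5 not called, and Fbxo4 (4.62) and Fbxo38 (3.97) stand apart at the top.

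Fbxo4 (ENSMUSG00000022184.8, chr15:3965445-3979573, minus strand), a receptor known for cyclin D1 and the telomere protein TRF1, showed the largest rise among genes with this depth. It had 23 and 27 counts in WT and 664 and 530 in KO, or 3.46 ± 0.336 against 85.5 ± 9.54 CPM (log2 fold change 4.62, standard error 0.17, edgeR adjusted p = 7.08e-28). At 45.1 and 38.5 CPM per kb it was the F-box gene with the highest level in KO. Fbxo38, which marks the checkpoint receptor PD-1 for degradation in T cells, had 37 and 43 counts and 657 and 556 counts (log2 fold change 3.97, standard error 0.16, edgeR adjusted p = 4.06e-27). In both genes every KO library was above every WT library, which the choice of genes asked for. Libraries of 1 genotype stayed close to each other.

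The next 6 F-box genes by fold change, again with at least 10 counts in each library, are named here. Fbxo21 had 18 and 23 counts against 97 and 97 (log2 fold change 2.29, standard error 0.29). Fbxw4, known from limb malformation in the mouse mutant Dactylaplasia, had 18 and 27 against 94 and 89 (2.07, standard error 0.29), and 21.4% of its exon bases overlap another gene on the opposite strand. Fbxw2 rose from 98 and 94 counts to 293 and 258 (1.57, standard error 0.16). The other 3 rose by less. Fbxo33 had 78 and 97 counts against 210 and 206 (log2 fold change 1.30, standard error 0.18). Fbxo5, which encodes EMI1, an inhibitor of the anaphase-promoting complex, had 24 and 29 against 69 and 57 (1.30, standard error 0.31), and Fbxl14, a receptor known for Snail proteins, had 91 and 94 against 180 and 193 (1.07, standard error 0.18). These 6 genes were taken from called genes whose genotypes did not overlap, so the lack of overlap follows from the choice. The largest edgeR adjusted p among them was 1.78e-04, for Fbxo5.

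Fbxo7, which takes part in mitophagy with parkin, was just outside this depth. It had 7 and 5 counts in WT and 146 and 133 in KO (log2 fold change 4.56, standard error 0.34, edgeR adjusted p = 9.54e-17). Smaller rises were called, among others, in Fbxl12 (1.01), Fbxo3 (0.95), Fbxl2 (0.76), Fbxo6 (0.73) and Fbxw7 (0.48), all log2 fold changes. Fbxl12 shares 37.1% of its exon bases with Ubl5 on the opposite strand and Fbxl2 11.2% with Ubp1. Without a known strand setting reads of such partners cannot be told apart.

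Fbxw7, the receptor of MYC, cyclin E and Notch proteins, is an example at the weak end. It had 156 and 152 counts in WT and 245 and 170 in KO (edgeR adjusted p = 0.00665), so that its genotypes were apart only narrowly. Its call was lost with DESeq2, with limma-voom and without KO replicate 1, and in the last of these the log2 fold change was 0.24. Fbxo6, which recognises N-glycans of misfolded glycoproteins, had 115 and 88 against 184 and 142 counts and was among the 5 F-box genes with the highest level per kb, at 5.45 to 7.29 CPM per kb in WT and 9.56 to 11.6 in KO.

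Among the F-box genes with at least 10 counts in each library 5 fell. Fbxo11 (ENSMUSG00000005371.15, chr17:87990859-88065291, minus strand), the receptor of the germinal center repressor BCL6, was the F-box gene with the highest level in WT, at 34.9 and 32.4 CPM per kb. It had 1095 and 1041 counts in WT and 351 and 275 in KO, or 148 ± 7.66 against 44.8 ± 5.59 CPM (log2 fold change -1.72, standard error 0.10, edgeR adjusted p = 2.39e-20). The leading F-box gene was thus Fbxo11 in WT and Fbxo4 in KO. Fbxo4 was at 1.57 and 1.80 CPM per kb in WT and Fbxo11 at 11.1 and 9.30 in KO. Each lay below further F-box genes in the genotype where it did not lead.

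Fbxw5 fell from 79 and 67 counts to 11 and 13 (log2 fold change -2.54, standard error 0.35, edgeR adjusted p = 9.08e-09). Fbxo25 had 67 and 51 counts against 15 and 14 (log2 fold change -1.96, standard error 0.36, edgeR adjusted p = 2.68e-06). Fbxl5, whose product senses iron and marks the iron regulatory protein IRP2 for degradation, had 594 and 709 counts against 366 and 323 (log2 fold change -0.86, standard error 0.11, edgeR adjusted p = 4.61e-10). Fbxo8, which also carries a Sec7 domain, had 598 and 656 against 492 and 447 (log2 fold change -0.36, standard error 0.10, edgeR adjusted p = 0.00101). The libraries of the genotypes were apart in all 4 genes, which the choice of genes asked for.

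Fbxo46 (41 and 40 counts against 23 and 9) and Fbxo34 (23 and 20 against 9 and 10) were called lower at log2 fold changes of -1.29 and -1.11. The call of Fbxo34 was lost with DESeq2, with any 1 library left out, with the replicate number as a block (edgeR adjusted p = 0.0855) and with the trend of length and GC content removed. That of Fbxo46 was lost without KO replicate 2 (-0.80) and with the block and the trend together (edgeR adjusted p = 0.0517). The 5 genes that were not called were Fbxl20 (log2 fold change 0.56, standard error 0.31), Fbxl22 (0.22, 0.22), Fbxo28 (-0.13, 0.32), Fbxo9 (-0.17, 0.21) and Fbxo31 (-0.70, 0.46). A missed threshold does not show that these 5 did not differ. With the trend of length and GC content removed Fbxl20 (0.70) and Fbxl22 (0.52) were called higher, and with limma-voom Fbxo31 (-0.68) was called lower. Fbxl22 had 80 and 107 counts in WT and 134 and 76 in KO, the widest spread within a genotype among the 30 genes, and was also called higher without KO replicate 2 (0.53).

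A set of genes had counts in 1 genotype only. With at least 50 counts over the libraries of WT, 40 of the 89 genes could be seen to vanish, and 9 of them (22.5%) had 0 counts in both KO libraries, beside 11.1% of the 9121 genes with that many counts. In the other direction 2 of 32 (6.25%) had 0 counts in both WT libraries, beside 7.93% of 8593 genes. When 20 counts were asked for, 9 of 44 and 3 of 38 were at 0 (all genes 13.4% and 9.78%), and with 100 counts 6 of 31 and 2 of 29 (8.23% and 5.73%). Between the 2 libraries of a genotype, 0 genes at all went from 0 to 25 counts or more.

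Besides Cul4a and Cul7, 7 F-box genes were found in WT and not in KO. Fbxo36 had 169 and 160 counts in WT and was at least 106-fold lower, Fbxw9 had 120 and 112 and was at least 74.5-fold lower, and Fbxl8 had 46 and 48 and was at least 30.2-fold lower. Fbxo32, the muscle atrophy gene atrogin-1, had 44 and 45 counts (at least 28.6-fold lower). Fbxo42, described as a receptor of p53, had 16 and 34 (at least 16.1-fold lower). The 2 WT libraries were near each other in all of these except Fbxo42.

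Fbxw11 encodes β-TrCP2, which marks phosphorylated IκB and β-catenin. It had 67 and 92 counts in WT and 0 in both KO libraries (at least 51.0-fold lower). Its paralog Btrc, which encodes β-TrCP1 and lies outside the symbol rule, was counted 538 and 499 times against 89 and 96 times (log2 fold change -2.43, standard error 0.14, edgeR adjusted p = 8.13e-21). Both genes of the β-TrCP pair were thus lower in KO. Fbxw13 had 178 counts in each WT library and 0 in each KO library, at least 114-fold lower. It lies in a cluster of 15 related Fbxw genes on chromosome 9 (109139447 to 109790670), and the other 14 had no count in any library. Reads of such copies can be split or set aside as not unique, so the count of Fbxw13 is uncertain.

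In the opposite direction, Fbxl15 and Fbxo45 had counts in KO alone. Fbxl15, a receptor of the ligase SMURF1, had 0 counts in WT and 85 and 64 in KO, at least 51.6-fold higher, but 25.6% of its exon bases overlap Cuedc2 on the opposite strand. Fbxo45, which works with MYCBP2 in place of a cullin, had 80 and 76 counts in KO (at least 54.0-fold higher). Fbxl17, which removes wrongly paired BTB proteins, had 20 and 23 (at least 14.9-fold higher).

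A few further genes were nearly absent from 1 genotype. Fbxl4, a mitochondrial protein that restrains mitophagy, had 0 and 1 counts in WT and 285 and 209 in KO, a ratio of 513 with a 95% counting interval of 91.6 to 20299. Fbxo22, known for degrading the demethylase KDM4A, had 150 and 153 counts in WT and 0 and 1 in KO (292 times, interval 52.0 to 11564), and 15.4% of its exon bases overlap Nrg4. Fbxo30 had 86 and 75 against 0 and 3 (51.7 times, interval 17.4 to 253). These intervals cover counting error only. In each of these genes the libraries of a genotype were both high or both near 0.

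**Figure D3:**
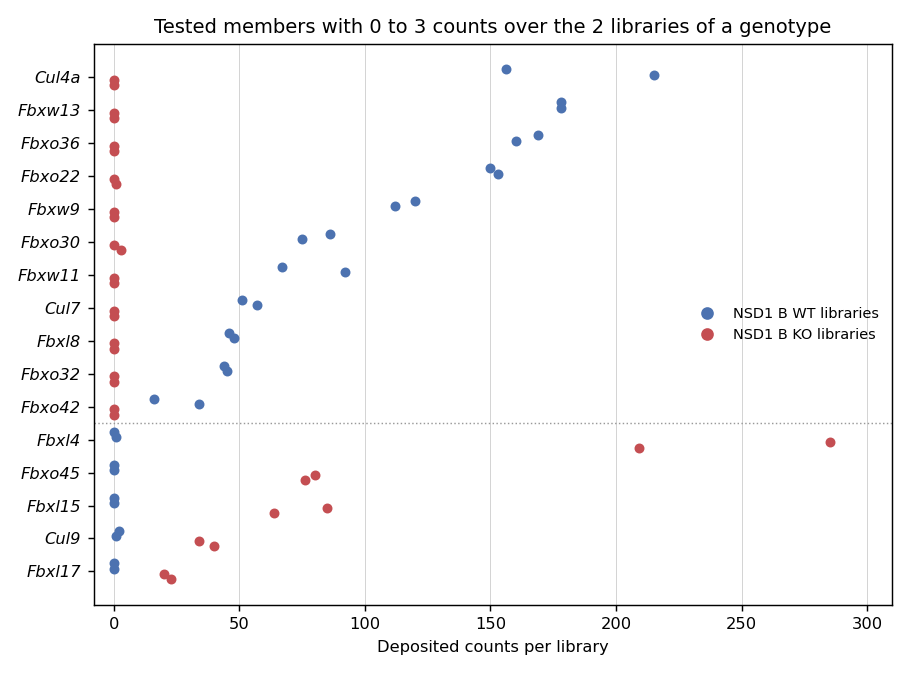
Deposited counts per library (x axis) of the 16 tested genes with 0 to 3 counts over the 2 libraries of a genotype, with 1 point for each library. Above the dotted line are 11 genes found in WT, led by Cul4a (156 and 215), and below it 5 genes found in KO, led by Fbxl4 (285 and 209).

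The remaining genes were under the filter or without counts. Fbxw8, the receptor that pairs with Cul7, had 11 and 8 counts in WT and 3 and 2 in KO and was not tested, and 33.4% of its exon bases overlap an antisense gene. Fbxl6 had 5 and 9 counts against 0 and 1, Fbxo47 1 and 7 against 0 and 0, Fbxl13 0 and 2 against 3 and 0, Fbxl16 2 and 0 against 0 and 0, and Fbxo10 0 and 0 against 0 and 9. No count was present for Fbxl7, Fbxl18, Fbxl19, Fbxl21, Fbxo2, Fbxo15, Fbxo16, Fbxo17, Fbxo24, Fbxo27, Fbxo39, Fbxo40, Fbxo41, Fbxo43, Fbxo44, Fbxo48, Fbxw10, Fbxw14 to Fbxw28 and Skp2. Genes without a count cannot be compared, and those with few counts only roughly. For Fbxl6 the ratio of WT over KO was 13.5, with a counting interval of 2.05 to 570. For Fbxl13 the ratio of KO over WT was 1.56 (0.178 to 18.6). With a filter of 1 count in any library 25 members were called higher and 23 lower, beside 24 and 21 in the main fit. The calls of the 50 genes of the main fit stayed the same, so some of these genes were called there.

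**Figure D4:**
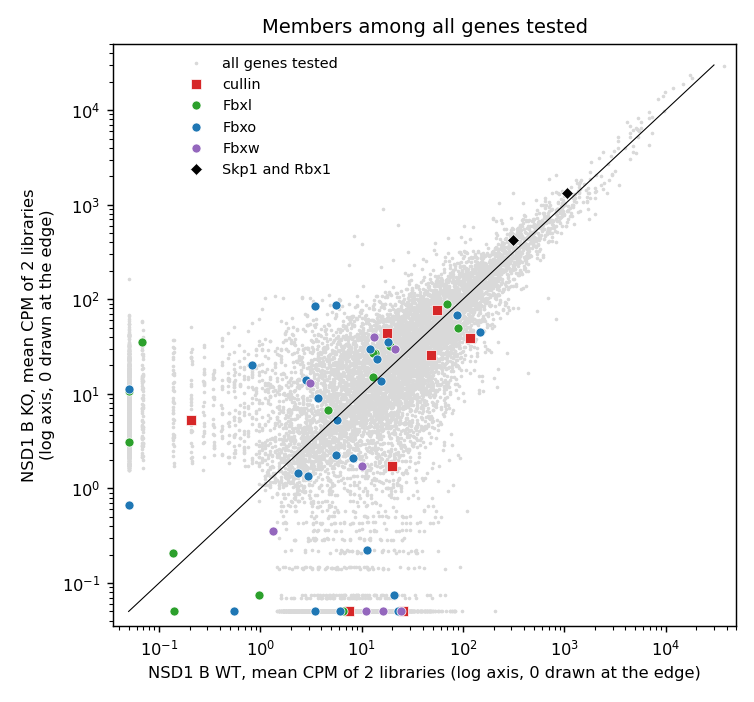
Mean CPM of the 2 WT libraries (x axis) and of the 2 KO libraries (y axis), both on log axes, for all 11657 tested genes (grey) and for the 56 counted genes of the set, colored by family, with 0 drawn at the edge. Rbx1 and Skp1a lie near the line of equal levels, while several cullin and F-box genes lie along the lower edge with 0 counts in KO.

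Summed levels show how the families stood in each library. The Fbxl genes summed to 224 and 236 CPM in WT and 318 and 276 CPM in KO. The Fbxo genes summed to 399 and 402 against 473 and 436 CPM, and the Fbxw genes to 102 and 99.9 against 89.8 and 79.1 CPM. For each of these 3 families, as for the cullins, the libraries of the genotypes did not overlap, with Fbxl and Fbxo higher and Fbxw and cullins lower in KO. These directions rested on 1 or 2 genes of each family, left out here after their values were seen. Without Fbxo4 the Fbxo sum was lower in KO (396 and 399 against 381 and 357 CPM), and over all 22 tested Fbxo genes the median log2 fold change was -0.27. Without Fbxw13 the Fbxw sum was higher in KO (76.8 and 75.5 against 89.8 and 79.1 CPM). The Fbxl sum stayed higher without Fbxl4 (224 and 236 against 279 and 244.5 CPM), while with 1 further gene left out the libraries overlapped. The sum of the cullins was lower without Cul3 (170 and 179 against 155 and 152 CPM) and not without both Cul3 and Cul4a (148 and 150 against 155 and 152 CPM).

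The wider machinery was followed through 6 lists with 131 genes, of which 105 were tested, 34 were higher and 48 lower in KO. These are 78.1% called, 32.4% higher and 45.7% lower, near the 78.2%, 37.1% and 41.1% of all tested genes. In the list of adaptors and other scaffolds or receptors, 4 were higher and 8 lower of 18 tested (66.7% called, median log2 fold change -0.13). The 2 that moved most at 10 counts in each library were Btrc, given above, and Kdm2b, a histone demethylase with an F-box (44 and 32 counts against 23 and 12, log2 fold change -1.07, standard error 0.38). The call of Kdm2b was lost with DESeq2, without WT replicate 1 (-0.78), without KO replicate 2 (-0.71) and with the replicate block and the length and GC trend together (-0.87). Among the adaptors, Eloc, the gene of elongin C, was higher (log2 fold change 0.46), Elob, the gene of elongin B, was lower (-0.33), and Ddb1 was not called (-0.15, standard error 0.13). Vhl, the receptor of hypoxia-inducible factors that uses Cul2, had 0 counts in WT and 82 and 59 in KO, at least 48.8-fold higher. Klhl14, a Cul3 receptor, had 345 and 296 counts in WT and 0 in KO, at least 206-fold lower.

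Of the regulators of cullin activity, 7 were higher and 7 lower of 19 tested (median log2 fold change 0.11), which is 73.7% called where all tested genes had 78.2%. Nedd8 itself rose from 4222 and 4602 counts to 5844 and 5636 (log2 fold change 0.44, standard error 0.08, edgeR adjusted p = 1.36e-06). Dcun1d5, which assists Nedd8 transfer, had 154 and 122 counts against 852 and 750 (log2 fold change 2.59), and Arih2, a ligase that acts with neddylated Cul5, had 68 and 77 against 399 and 382 (2.48). On the other side, Cand1 was lower (-0.75), and Senp8, the protease that matures Nedd8, had 215 and 211 counts in WT and 0 in KO, at least 137-fold lower.

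Subunits of the COP9 signalosome went both ways, with 4 higher and 4 lower of 9 tested (median log2 fold change 0.25). That is 44.4% in each direction, beside 37.1% higher and 41.1% lower of all tested genes. Gps1 rose from 14 and 32 counts to 177 and 138 (log2 fold change 2.82, standard error 0.27). Cops7a fell from 340 and 371 to 33 and 37 (-3.28, standard error 0.19). Cops5, the catalytic subunit that removes Nedd8, fell from 869 and 876 to 383 and 353 (-1.19, standard error 0.10, edgeR adjusted p = 2.87e-15).

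Receptors of other cullins were also split. Of the receptors for Cul5 and Cul2, 6 were higher and 12 lower of 19 tested (median log2 fold change -1.65), or 31.6% and 63.2% beside 37.1% and 41.1% of all tested genes. Klhdc2, a Cul2 receptor that reads C-terminal degrons, had 12 and 16 counts against 274 and 263 (log2 fold change 4.30, standard error 0.24), and Socs6 had 38 and 30 against 417 and 337 (3.52, standard error 0.19). Spsb3 had 315 and 346 counts in WT and 0 in KO (at least 212-fold lower), and Lrrc41 had 155 and 176 counts in KO alone (at least 115-fold higher). Of the Cul4 receptors 5 were higher and 7 lower of 17 tested (70.6% called, beside the same 78.2%, median -0.17). Among them, Dcaf1 had 11 and 25 counts against 143 and 145 (3.05, standard error 0.28) and Ercc8, the Cockayne syndrome gene CSA, had 15 and 16 against 50 and 49 (1.72, standard error 0.36).

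**Figure D5:**
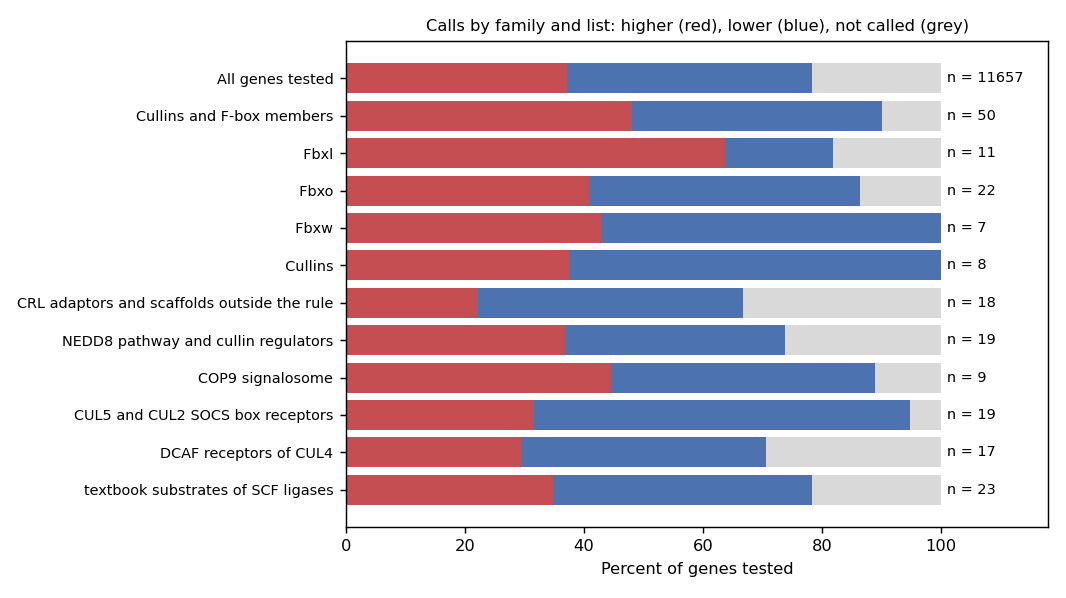
Share of tested genes (x axis, percent) called higher (red), lower (blue) or not called (grey) in KO, for all tested genes, for the cullin and F-box set and its families, and for the 6 further lists, with the number of tested genes at the right. The Fbxl family has 63.6% of its 11 tested genes higher beside 37.1% of all genes. Some of these, such as Fbxl15 and Fbxl4, have 0 or 1 counts in WT and passed the filter through KO alone. At 10 counts in each library 4 of 7 Fbxl genes were higher, beside 36.2% of all genes at that depth. The smallest families drawn hold 7 and 8 tested genes.

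Finally, 27 textbook substrates of SCF ligases were read at the level of RNA, and 8 were higher and 10 lower of 23 tested (median log2 fold change -0.26). The share called was 78.3%, beside 78.2% of all tested genes. The 2 that moved most at 10 counts in each library were Ccnd3, with 126 and 119 counts against 749 and 718 (log2 fold change 2.64, standard error 0.12), and Myc, with 2027 and 1856 against 555 and 455 (-1.89, standard error 0.09). Beside its receptor gene Fbxo11 (-1.72), Bcl6 had 34 and 35 counts against 112 and 91 (1.61, standard error 0.26, edgeR adjusted p = 3.14e-07). Beside Fbxl5 (-0.86), Ireb2, the gene of IRP2, had 192 and 198 against 117 and 113 (-0.71, standard error 0.17). Beside the β-TrCP genes Fbxw11 and Btrc, Nfkbia, the gene of IκBα, had 1657 and 1672 against 689 and 678 (-1.23, standard error 0.09). Ctnnb1, the gene of their target β-catenin, was not called, with 790 and 867 against 981 and 894 (0.23, standard error 0.09). The pairs were picked after the values were seen. These ligases act on proteins, which were not measured here, so the values stand side by side without a relation being tested.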

How the data were processed

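RNA from B220+ B cells of the spleen was sequenced by the authors in 4 libraries, as paired-end reads of 150 bases. For each library the authors deposited whole-number counts by gene, without normalization or scaling by length. The submitters' processing notes name Bowtie2, Cufflinks and mm10. FPKM from Cufflinks are described in the Methods and were not used. Which program did the counting, whether it used strand and which annotation release it read is not given in the sources used here. Lines for reads on no gene held 44.3% to 44.6% of the counted reads of a library and stayed out of library sizes and tests. Of 55401 identifiers, 55141 (99.5%) matched GENCODE M21, which gave positions and exon lengths.

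Counts were scaled by TMM in edgeR 4.0.16 (R 4.3.3), and genes were kept by filterByExpr (minimum count 10, minimum total 15) with library sizes taken over the kept genes. The quasi-likelihood test of genotype was fitted to all tested genes, with Benjamini-Hochberg adjustment over all of them, and members were read from that fit. Calls needed a fold change above 1.2 and an adjusted p below 0.05. The Methods state these limits without saying whether p was adjusted. For 0 counts in a genotype a bound was taken against 3 counts over its 2 libraries, and for 1 to 3 counts a ratio with an exact 95% interval. Bounds and intervals cover counting error only. With 2 libraries against 2 no exact permutation test can reach 0.05, so none was made. The fit was tested on simulated data. The values of 2 genes were left out and are not reported here, while totals over members and lists count them.

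Members and lists were chosen with earlier results of these data known. Named one by one are the cullins, Skp and Rbx genes, F-box genes at 0 in a genotype with at least 50 counts over the other, the 8 largest increases and decreases called with at least 10 counts in each library and genotypes apart (only 5 decreases qualified), the 5 F-box genes of the highest level per kb, and the 2 genes of each further list that moved most at that depth. The other genes named, among them Fbxo7, Fbxl4, Fbxw7, Nedd8, Cops5, Vhl, Klhl14, Senp8 and Bcl6, were chosen after their values were seen. As alternatives came DESeq2 size factors, library size alone, upper quartile scaling, DESeq2 1.42.0, limma-voom (limma 3.58.1), other filters and thresholds, each library left out, the replicate number as a block, and a loess trend with exon length and GC content removed (span 0.5). The restriction to genes with at least 10 counts in each library was chosen after seeing the data. Motifs were searched as letters in RefSeq windows of GRCm38.p6.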

Additional observations from a re-analysis of the deposited data

How the results depend on the processing

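Of the 50 tested genes, 36 kept their call under each alternative in which they were tested, and 0 changed direction with a call. With the filter of 1 CPM in all 4 libraries 17 of the 50 were not tested. Whether the replicate numbers pair the libraries is not given. Deviations of same-numbered libraries from their genotype mean had a correlation of 0.0645 over the tested genes. With 2 libraries per genotype this value cannot decide whether they are paired. With the replicate number as a block 24 members were higher and 20 lower (median log2 fold change 0.25). The median of 0.26 over the members depended on the genes and on the libraries included. It was 0.057 with a filter of 1 count in any library, 0.41 with at least 1 CPM in all 4 libraries, and 0.012 to 0.32 with each library left out, lowest without NSD1 B KO replicate 1. The filter of 1 CPM in all 4 libraries, which removes genes at 0, left 2855 genes higher and 2991 lower in all, and 17 members higher and 10 lower. With at least 10 counts in each library, 7 members were lower. At a fold limit of 0.5 on the log2 scale and an adjusted p below 1e-05, 16 members were higher and 18 lower. Counts of 0 limit these libraries to 0.208 and 0.215 CPM, and 2 libraries per genotype leave the spread between mice unknown.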
